A study of Mus musculus with 12 samples.

Results

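JQ1 and I-BET151 are inhibitors of the BET bromodomain proteins, and both were given to the same mouse pancreatic cancer cells at the same dose for the same time. The comparison described here sets the 3 JQ1 libraries against the 3 I-BET151 libraries, chosen by their labels alone, which is 6 of the 12 RNA-seq libraries of the study, over all 17340 genes of its count table. Each compound was used at 1 µM for 48 h, so 1 pair of compounds was compared at 1 dose and 1 time. The 3 control libraries, called untreated in one label and PBS in another and listed with the same dose and time, are given beside them. Another 3 libraries, treated with the histone deacetylase inhibitor ITF2357, entered only the shared fit. There they counted in the scaling, the estimate of spread and each gene's mean log2 CPM, by which genes are filtered or grouped below. KPC is a line of mouse pancreatic cancer cells, labelled C57BL/6 and grown in DMEM with serum. The labels name neither the alleles of the line nor the solvent of the compounds, and give no enantiomer of JQ1. Nothing in them tells whether replicates are separate cultures, so p-values measure the spread between these libraries, which may be technical.

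The BET proteins, BRD2, BRD3 and the germ-cell protein BRDT among them, carry paired bromodomains that bind acetylated lysines on histone tails. BET proteins bring the kinase complex P-TEFb to promoters and enhancers, where P-TEFb releases paused RNA polymerase II. The scaffolds are unrelated, since JQ1 is built on a thienotriazolodiazepine core and I-BET151 carries a dimethylisoxazole on an imidazoquinolinone, and both compounds occupy the acetyl-lysine pocket of the bromodomains. In many cancer cells such compounds are known to lower MYC and to raise HEXIM1, which is used as a marker of BET inhibition.

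The libraries held 21015748 to 29065651 counts with JQ1, 22244520 to 25629540 with I-BET151 and 21922735 to 23236637 in controls. Correlations of log2 CPM (a gene's counts scaled to library size) between libraries of 1 group were 0.991 to 0.994, against 0.962 to 0.965 between JQ1 and I-BET151 libraries. All 11 markers of pancreatic ductal cells were among the genes measured, keratins and Cdh1 at high levels and Epcam at 2.17 CPM with JQ1, 2.24 with I-BET151 and 1.75 in controls, but only 1 of 12 acinar, 1 of 10 endocrine, 4 of 11 fibroblast, 3 of 8 endothelial and 2 of 16 leukocyte markers. Of the ductal markers 2 were higher with JQ1 than with I-BET151, 8 lower and 1 not called in the test described below, and Cftr, at under 1 CPM, lost its call without JQ1 replicate 1 (adjusted p = 0.13) or I-BET151 replicate 1 (adjusted p = 0.051). The acinar marker Cela1 was higher with JQ1 (log2 fold change 3.4 ± 0.23), as were the 4 fibroblast markers Col1a1, Pdgfra, Pdgfrb and Acta2 and 2 of the 3 endothelial ones, Kdr and Vwf. Vwf, at under 1 CPM, lost its call without JQ1 replicate 3 (adjusted p = 0.070) or I-BET151 replicate 2 (adjusted p = 0.11). The 4 fibroblast markers measured summed to 23.6 to 29.7 CPM with JQ1, 7.77 to 9.37 with I-BET151 and 23.1 to 24.5 in controls, and their part in the matrix genes below was not tested. Col3a1, Dcn and Lum, defining genes of fibroblasts, were not among the genes of the table. The nuclear RNA Malat1 took 2.88 to 2.91% of counts with JQ1, 7.11 to 7.33% with I-BET151 and 2.63 to 2.69% in controls. Mitochondrially encoded genes took 2.699 to 2.759% of counts with JQ1, 3.83 to 3.96% with I-BET151 and 2.22 to 2.32% in controls. In bulk RNA, fewer cells of a type and less RNA per cell cannot be told apart, and all levels here are relative to the rest of the library.

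The compounds left the cells with different transcriptomes. JQ1 libraries lay close to controls, whereas I-BET151 libraries stood far from both, on a first principal component that held 71.7% of the variance. Of 17340 genes, 10491 differed between JQ1 and I-BET151 at an adjusted p under 0.05 in edgeR's quasi-likelihood test with Benjamini-Hochberg adjustment, which is 60.5% of genes tested. Of these, 5320 (30.7%) were higher and 5171 (29.8%) lower with JQ1. When library totals were used for scaling in place of trimmed-mean (TMM) factors, the split was 7300 higher and 3305 lower, and the median of all genes moved by 0.15 on the log2 scale. Most differences were small, with a median size of 0.50 on the log2 scale among called genes. The 25 gene lists used below hold 665 measured genes, of which 351 were higher with JQ1, 208 lower and the rest not called. That is 84.1% called, against 60.5% of all genes. The counts of each list are to be read beside the 30.7% higher and 29.8% lower of all genes.

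Large differences ran mostly one way. At least 2-fold differences were found in 1816 genes higher with JQ1 (10.5%) and 546 lower (3.15%), and at least 4-fold ones in 619 genes higher with JQ1 (3.57%) and 50 lower (0.288%). At least 16-fold differences were found in 96 genes higher (0.554%) and 5 lower (0.0288%). In 5776 genes (33.3%) every JQ1 library lay above every I-BET151 library, and in 5604 (32.3%) below. With the test limited to genes whose log2 CPM averaged 1 or more, the count of genes differing at least 2-fold in either direction was 1292, against 2362 over all genes. Set against control libraries in the same fit, 4340 genes (25%) were called with JQ1 and 10974 (63.3%) with I-BET151, and 102 genes (0.588%) with JQ1 and 2726 (15.7%) with I-BET151 differed from control at least 2-fold. Both contrasts use the same control libraries. The share called in the comparison of the compounds was 31.6% in the lowest of 4 equal groups of genes by mean level and 80.6% in the highest.

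**Figure D1:**
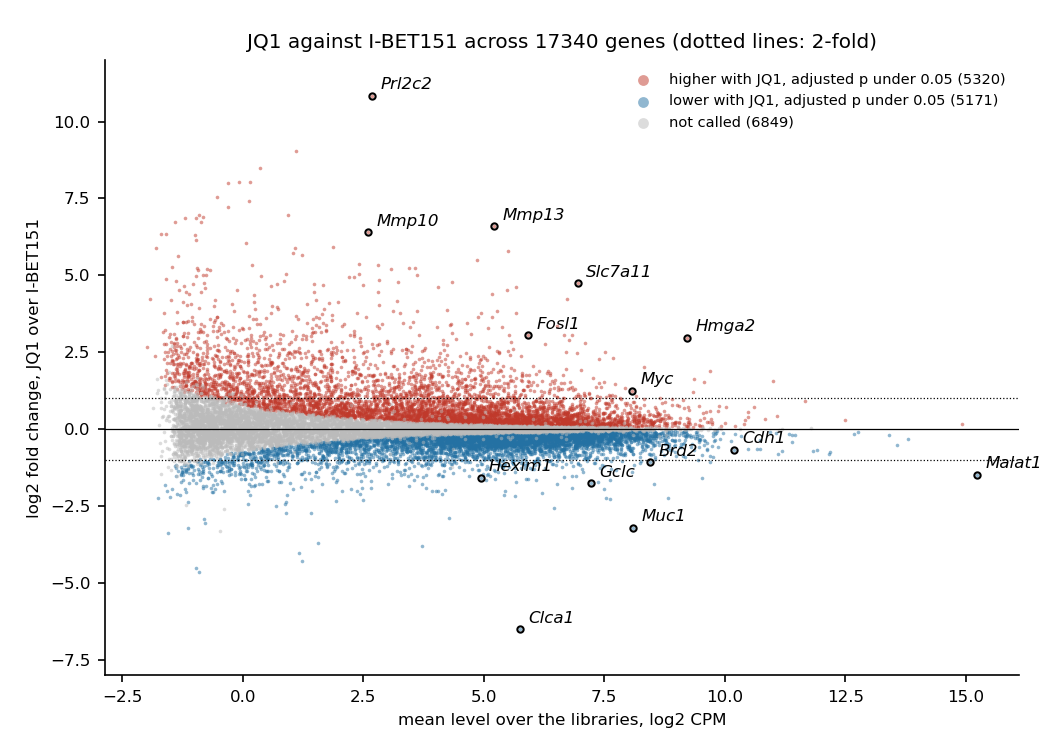
Each point is a gene, with its mean log2 CPM over all 12 libraries across and its log2 fold change of JQ1 over I-BET151 up. Red genes were higher with JQ1, blue genes lower, grey genes not called, and dotted lines mark 2-fold. The 5320 red and 5171 blue genes are near equal in number, but large differences lie mostly above the line, with Clca1 and Muc1 among the exceptions below it. The height of Prl2c2, at 0 counts with I-BET151, depends on the prior count of the fit.

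Hexim1 and Brd2 were lower with JQ1 than with I-BET151, while Brd3 differed little. Hexim1, whose protein holds P-TEFb inactive together with the 7SK RNA, is at chromosome 11, 103116231 to 103119725 (GENCODE M21, mm10). It had 19.9, 21.04 and 19.01 CPM in JQ1 libraries, 55.3, 64.3 and 59.2 CPM in I-BET151 libraries and 17.4, 17.5 and 15.6 CPM in controls. Every JQ1 library was below every I-BET151 library and above every control, with a log2 fold change of -1.58 ± 0.063 (SE) between the compounds (adjusted p = 1.1e-30). Over control, Hexim1 rose by 0.25 with JQ1 (adjusted p = 0.0071) and by 1.83 with I-BET151 (adjusted p = 4.1e-33), both on the log2 scale.

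Brd2, which encodes one of the drug targets, followed the same order. It had 264, 277 and 275 CPM with JQ1, 579, 569.8 and 576 with I-BET151 and 254, 263 and 256 in controls, a log2 fold change of -1.08 ± 0.026 between the compounds (adjusted p = 9.2e-42). Brd3, which encodes another target, did not follow it. It had 124.8, 122.4 and 126.4 CPM with JQ1, 120.6, 121.6 and 116.9 with I-BET151 and 122.8, 120.9 and 122.3 in controls. JQ1 libraries lay just above I-BET151 libraries, but the gene was not called (adjusted p = 0.12), and the difference had a 95% interval of -0.008 to 0.12 on the log2 scale. That interval lies inside a 1.2-fold difference, but under scaling by library totals Brd3 was called higher with JQ1 (log2 fold change 0.21).

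Of the 17 measured genes of the BET and P-TEFb list, 2 were higher with JQ1, 8 lower and 7 not called, where 30.7% of all genes were higher and 29.8% lower, and the median log2 fold change was -0.02, against 0.011 over all genes. The members lower with JQ1 included Mepce, the capping enzyme of 7SK RNA, (log2 fold change -0.44), and Larp7, which binds the same RNA (-0.32). Cdk9, the kinase of P-TEFb, was higher with JQ1 (log2 fold change 0.19). The small members depend on scaling: with library totals, 8 were higher and 5 lower.

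**Figure D2:**
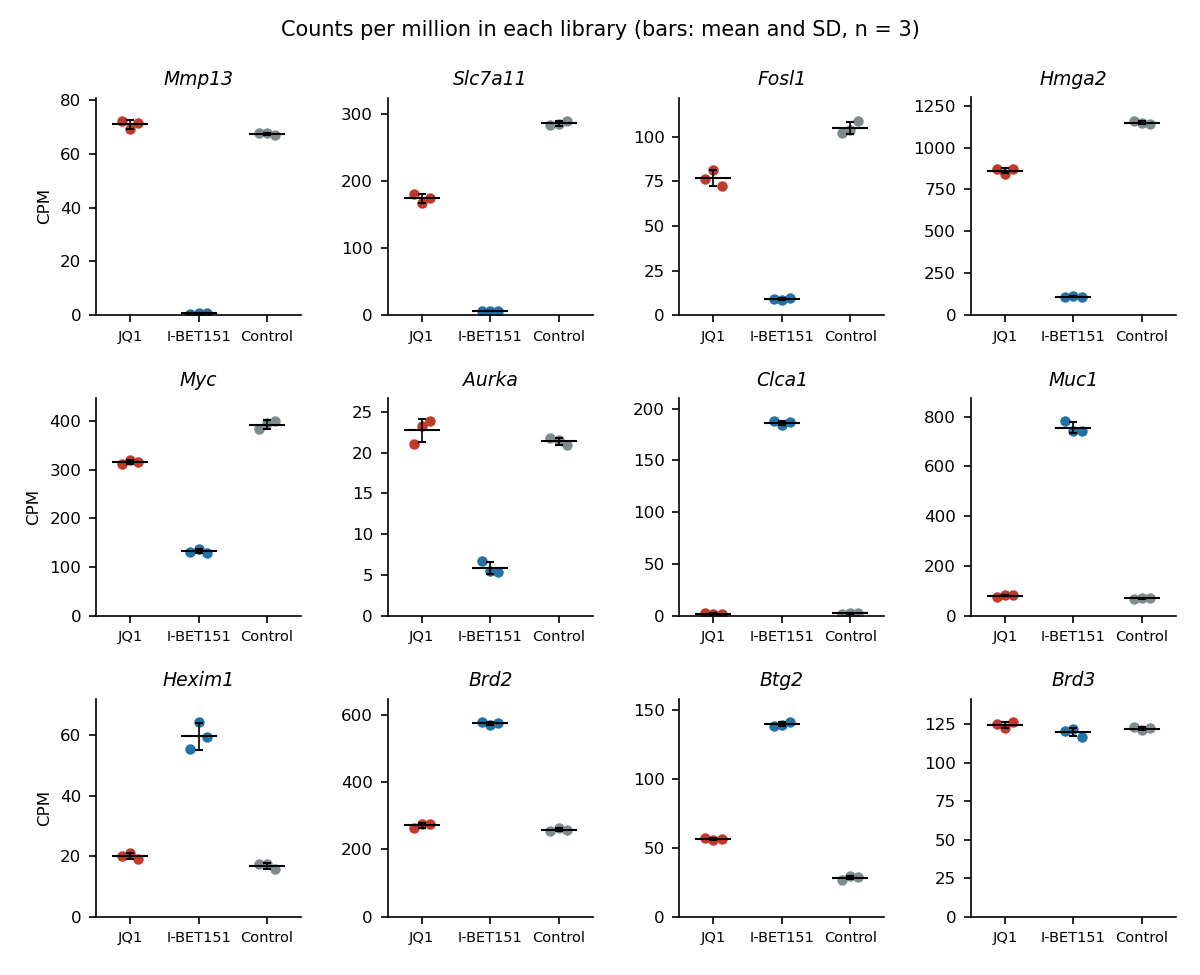
Each panel gives 1 gene's level in CPM in every JQ1, I-BET151 and control library (points), with the mean and SD of each group of 3. In 11 of the panels the JQ1 and I-BET151 points lie far apart, and in the Brd3 panel they lie close together without overlap.

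Myc, the transcription factor most often followed under BET inhibitors, fell with both compounds and further with I-BET151. It had 312, 319.5 and 315 CPM with JQ1, 132, 138 and 129 with I-BET151 and 383, 396 and 399 in controls. The groups did not overlap, and the log2 fold change was 1.24 ± 0.028 between the compounds (adjusted p = 3.9e-43), -0.32 for JQ1 over control and -1.56 for I-BET151 over control. Its paralog Mycl was higher with JQ1 (log2 fold change 3.36), whereas Mycn, another paralog, was lower (-0.84). Mxd1 and Mxd4, which encode proteins that compete with MYC for MAX, had log2 fold changes of -0.70 and -0.82. Mxi1, a gene of the same family, was higher with JQ1 (log2 fold change 0.53), and Mxd3 was not called. In the MYC network list of 13 genes, 4 were higher with JQ1, 6 lower and 3 not called, and 6 were higher and 4 lower with library totals. Among all genes 30.7% were higher and 29.8% lower.

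Genes that cells use to make ribosomes and to divide were higher with JQ1 than with I-BET151. Among 38 genes listed under ribosome biogenesis, 32 were higher, 2 lower and 4 not called (median log2 fold change 0.46). The list also holds Ppat and Cad, of nucleotide synthesis, and Srm and Odc1, of polyamine synthesis. Of these, Cad and Srm were higher with JQ1, Ppat was lower and Odc1 was not called. Dkc1, the pseudouridine synthase of snoRNPs, averaged 51.99 ± 1.05 CPM with JQ1, 25.8 ± 2.65 with I-BET151 and 62.4 ± 2.07 in controls (SD, n = 3 each). Ppat, the first enzyme of purine synthesis, went the other way (log2 fold change -0.84). Over control, 32 genes of the whole list fell with JQ1 and 34 with I-BET151. Among all genes 12.4% fell with JQ1 and 32.6% with I-BET151. The list's median log2 fold change over control was -0.27 with JQ1 and -0.83 with I-BET151.

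All 34 measured mitosis genes were higher with JQ1, with a median log2 fold change of 1.33 and a range of 0.66 to 1.95. Aurka, the centrosome kinase of early mitosis, had 21.1, 23.3 and 23.8 CPM with JQ1, 6.75, 5.53 and 5.33 with I-BET151 and 21.7, 21.5 and 20.9 in controls. JQ1 and control libraries lay in the same range and I-BET151 libraries well below, at a log2 fold change of 1.95 ± 0.089 between the compounds (adjusted p = 9.6e-28). Tpx2, which activates Aurora A on the spindle, was higher with JQ1 (log2 fold change 1.88), as was Mybl2, a transcription factor of G2 and M genes (1.78). Of 41 DNA replication genes, 38 were higher with JQ1, none lower and 3 not called (median log2 fold change 0.73), led by Cdc45, a subunit gene of the replication helicase (log2 fold change 2.22), by Cdt1, whose protein helps load the helicase onto origins (1.97), and by thymidine kinase Tk1 (1.84). Against control, 10 mitosis genes rose and none fell with JQ1, where 12.6% of all genes rose. All 34 mitosis genes fell with I-BET151, where 32.6% of all genes fell. Of the 41 DNA replication genes, 1 rose and 11 fell against control with JQ1, where 12.4% of all genes fell. With I-BET151, 39 of the DNA replication genes fell and none rose.

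Inhibitors of cell division did not move as 1 group. Of 17 genes for CDK inhibitors and p53 targets, 6 were higher with JQ1, 7 lower and 4 not called, and with library totals 9 were higher and 6 lower. The shares over all genes were 30.7% higher and 29.8% lower. Btg2, an antiproliferative adaptor of the mRNA deadenylation complex, had 57.03, 55.5 and 56.2 CPM with JQ1, 138, 139 and 141 with I-BET151 and 26.8, 29.2 and 28.6 in controls. It rose over control with both compounds, and further with I-BET151 (log2 fold change -1.31 ± 0.04 for JQ1 over I-BET151, adjusted p = 2.4e-36). Cdkn1a, which encodes the CDK inhibitor p21, averaged 13.4 ± 1.05 CPM with JQ1, 10.9 ± 0.574 with I-BET151 and 15.6 ± 1.33 in controls. Its difference between the compounds of 0.29 (adjusted p = 0.0096) had an adjusted p of 0.070 without JQ1 replicate 2. Sesn2, a sestrin that responds to amino acid shortage, was higher with JQ1 (log2 fold change 1.43).

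Genes for secreted proteases differed most among the list members that were higher with JQ1. Mmp13, Mmp10 and Mmp3 encode a collagenase and stromelysins that cut extracellular matrix, and they lie in 1 cluster on chromosome 9. Mmp13 (chromosome 9, 7272514 to 7283331) had 72.2, 69.01 and 71.4 CPM with JQ1, 0.437, 0.760 and 0.965 with I-BET151 and 67.6, 67.5 and 66.9 in controls. JQ1 libraries were at or just above the control level and I-BET151 libraries were near 0, a log2 fold change of 6.6 ± 0.11 between the compounds (adjusted p = 1.6e-46). Mmp10 had 12.99, 12.9 and 13.9 CPM with JQ1 and 0.0971, 0.253 and 0.0919 with I-BET151 (log2 fold change 6.41 ± 0.23), and Mmp3 had 17.2, 16.4 and 17.5 CPM with JQ1 and 0.582, 0.549 and 0.230 with I-BET151 (log2 fold change 5.22 ± 0.18). Mmp10 and Mmp3 rose over control with JQ1 by 0.48 and 0.39 on the log2 scale, whereas Mmp13 differed from control by 0.075 with JQ1 and was not called.

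The promoters of these proteases are shown because all of them hold the AP-1 motif, the binding sequence of FOS and JUN family dimers, close to a TATA box. RefSeq promoter windows on build GRCm38.p6 were found for 15 of the 24 genes with the largest differences, and 5 of the 15 held the AP-1 motif. Besides the proteases these were Bcat1, which was higher with JQ1 (log2 fold change 5.05), and Cyp3a13, which was lower (-2.56). Mrc1 and Bcl2l15, higher with JQ1 (log2 fold changes 5.8 and 5.25), held none of the 5 motifs searched, nor did Klra4 and Ndst3, also higher. Of the lower genes, Muc1 and Slco2a1 held a TATA box but no AP-1 motif, and Depp1, Dhrs3, Mmp15 and Wnt4 held none of the 5. Printed are the 200 bases before the annotated start on the plus strand, with AP-1 (TGANTCA) and TATA box (TATAAA) matches on either strand in capitals, for Mmp13 at chr9:7272314-7272513, Mmp10 at chr9:7502142-7502341, Mmp3 at chr9:7445622-7445821 and, for contrast, Depp1 at chr6:116650484-116650683, the gene with the largest difference in the other direction that had a window.
Mmp13: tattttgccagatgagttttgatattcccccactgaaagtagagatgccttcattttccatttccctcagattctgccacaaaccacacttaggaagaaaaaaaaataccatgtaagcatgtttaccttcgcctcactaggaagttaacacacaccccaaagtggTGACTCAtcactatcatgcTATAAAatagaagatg
Mmp10: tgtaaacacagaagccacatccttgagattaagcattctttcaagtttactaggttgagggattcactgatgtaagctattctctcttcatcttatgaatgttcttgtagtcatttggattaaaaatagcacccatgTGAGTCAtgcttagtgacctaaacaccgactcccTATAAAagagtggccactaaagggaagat
Mmp3: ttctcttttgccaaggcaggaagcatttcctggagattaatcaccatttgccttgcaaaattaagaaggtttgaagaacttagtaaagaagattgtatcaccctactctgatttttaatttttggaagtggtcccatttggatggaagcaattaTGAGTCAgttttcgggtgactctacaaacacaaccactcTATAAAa
Depp1: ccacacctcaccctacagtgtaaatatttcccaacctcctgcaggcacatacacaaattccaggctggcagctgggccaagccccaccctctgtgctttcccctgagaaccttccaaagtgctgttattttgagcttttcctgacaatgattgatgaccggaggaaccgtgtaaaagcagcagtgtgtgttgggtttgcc
The AP-1 match begins 35 bases before the start in Mmp13, 63 in Mmp10 and 46 in Mmp3, and the TATA box 16 bases before it in Mmp13, 29 in Mmp10 and 7 in Mmp3. The Depp1 stretch held neither of these 2 motifs, nor the CRE TGACGTCA, the E-box CACGTG or the ATF4 and C/EBP element TGATGCAA. Depp1 was taken without regard to motifs, whereas the protease stretches were taken for holding AP-1, so their contrast is partly set by the choice. None of the matches overlapped another. In the 250 bases before the start, TGANTCA was found in 7.82% of 27025 genes with a window. It was found in 6.06% of 10654 genes tested, in 12.4% of 1147 genes called at least 2-fold higher with JQ1 and in 4.71% of 340 called at least 2-fold lower. TATAAA was found in 14.3% of genes with a window, in 8.21% of genes tested, 11.9% of those higher with JQ1 and 11.5% of those lower. The CRE was found in 1.77% of genes with a window, in 3.07% of genes tested, 2.09% of those higher with JQ1 and 4.12% of those lower. For the E-box the share was 6.86% of genes with a window, and it was found in 9.71% of genes tested, 7.32% of those higher with JQ1 and 8.82% of those lower. The ATF4 and C/EBP element was found in 0.918% of genes with a window, in 0.676% of genes tested, 1.31% of those higher with JQ1 and 0.882% of those lower. These shares are descriptions of letters in the windows and carry no test.

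The rest of the protease list leaned the same way. Of 20 measured metalloproteinase and inhibitor genes, 13 were higher with JQ1, 4 lower and 3 not called, where 30.7% of all genes were higher and 29.8% lower. The list had a median log2 fold change of 1.14, and with library totals 14 were higher and 2 lower. The exception of large size was Mmp15, a membrane-anchored metalloproteinase, with 22.2, 21.2 and 21.9 CPM with JQ1, 98.97, 96.8 and 95.5 with I-BET151 and 15.7, 16.2 and 17.01 in controls (log2 fold change -2.15 ± 0.051). Genes for inhibitors of these enzymes differed among themselves: Timp1 was higher with JQ1 (log2 fold change 1.56), Timp2 lower (-0.68) and Timp3 not called (0.11).

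Matrix and mesenchymal genes were mostly higher with JQ1. Of 30 measured extracellular matrix and TGF-β genes, 23 were higher, 5 lower and 2 not called (median log2 fold change 0.85). For all genes the shares were 30.7% higher and 29.8% lower. Ltbp2, a latent TGF-β binding protein, averaged 23.7 ± 0.550 CPM with JQ1, 1.67 ± 0.382 with I-BET151 and 15.6 ± 1.88 in controls, and Col6a2, a collagen VI chain, 43.5 ± 2.74 CPM with JQ1, 3.18 ± 0.409 with I-BET151 and 37.5 ± 2.95 in controls (SD, n = 3 each). The receptor gene Tgfbr2 was lower with JQ1 (log2 fold change -0.35). Of 20 EMT and mesenchymal genes, 19 were higher with JQ1, none lower and Cdh2, which encodes N-cadherin, was not called, and without JQ1 replicate 3 the list had 1 gene called lower. Snai1, a repressor of E-cadherin, was higher with JQ1 (log2 fold change 3.12 ± 0.25) and so was the homeobox gene Prrx1 (3.28 ± 0.28). Both averaged under 5 CPM in each group.

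The chromatin architectural factors Hmga2 and Hmga1 combined high levels with large differences. Hmga2 had 871, 843 and 874 CPM with JQ1, 106, 113 and 111 with I-BET151 and 1159, 1147 and 1141 in controls, and Hmga1 had 396, 406 and 405 CPM with JQ1, 102, 101 and 96.6 with I-BET151 and 590.1, 603 and 597 in controls. Neither gene's groups overlapped, and both fell against control with each compound. The log2 fold changes between the compounds were 2.97 ± 0.027 for Hmga2 (adjusted p = 1.7e-63) and 2.01 ± 0.028 for Hmga1 (adjusted p = 1.1e-53). Vim, the intermediate filament gene of mesenchymal cells, was higher with JQ1 (log2 fold change 0.54), with 1533 ± 6.06 CPM for JQ1 and 1053 ± 3.38 CPM for I-BET151.

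The AP-1 family split by member. Fosl1, which encodes FRA-1, had 76.3, 81.4 and 72.4 CPM with JQ1, 8.98, 8.695 and 9.84 with I-BET151 and 102, 104 and 109 in controls, a log2 fold change of 3.06 ± 0.06 between the compounds (adjusted p = 2.7e-46). Fos and Jun, the founding members, were lower with JQ1: Fos averaged 28.2 CPM with JQ1, 64.7 with I-BET151 and 16.1 in controls (log2 fold change -1.2), and Jun averaged 33.8 CPM with JQ1, 80.3 with I-BET151 and 27.3 in controls (-1.25). Junb and Fosl2 were not called. Across the 21 measured AP-1 and immediate early genes, 10 were higher with JQ1, 9 lower and 2 not called, with Egr3 (log2 fold change 1.74), a zinc-finger factor, next in size on the higher side. Among all genes 30.7% were higher and 29.8% lower. Zfp36, whose protein speeds the decay of AU-rich mRNAs, averaged 48.3 ± 0.838 CPM with JQ1, 115 ± 3.57 with I-BET151 and 25.2 ± 0.571 in controls (log2 fold change -1.25 ± 0.043).

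Genes for ligands of the EGF receptor, whose signal induces AP-1 genes, and for feedback on MAPK signalling were mostly higher with JQ1, 19 of 26, with 6 lower and 1 not called. Areg, which encodes the EGFR ligand amphiregulin, had 36.8, 37.2 and 35.9 CPM with JQ1, 3.398, 2.07 and 3.36 with I-BET151 and 55.7, 51.95 and 51.7 in controls (log2 fold change 3.65 ± 0.094). The ligand gene Btc was higher with JQ1 (log2 fold change 2.78 ± 0.11) and Ereg averaged 47.6 CPM with JQ1, 10.8 with I-BET151 and 60.4 in controls. Etv4, an ETS factor induced by MAPK signalling, was higher (log2 fold change 2.39 ± 0.095). With library totals 20 of the list were higher and 3 lower. In the main fit 30.7% of all genes were higher and 29.8% lower. The phosphatase gene Dusp1, which switches MAP kinases off, was lower with JQ1 (log2 fold change -0.54).

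**Figure D3:**
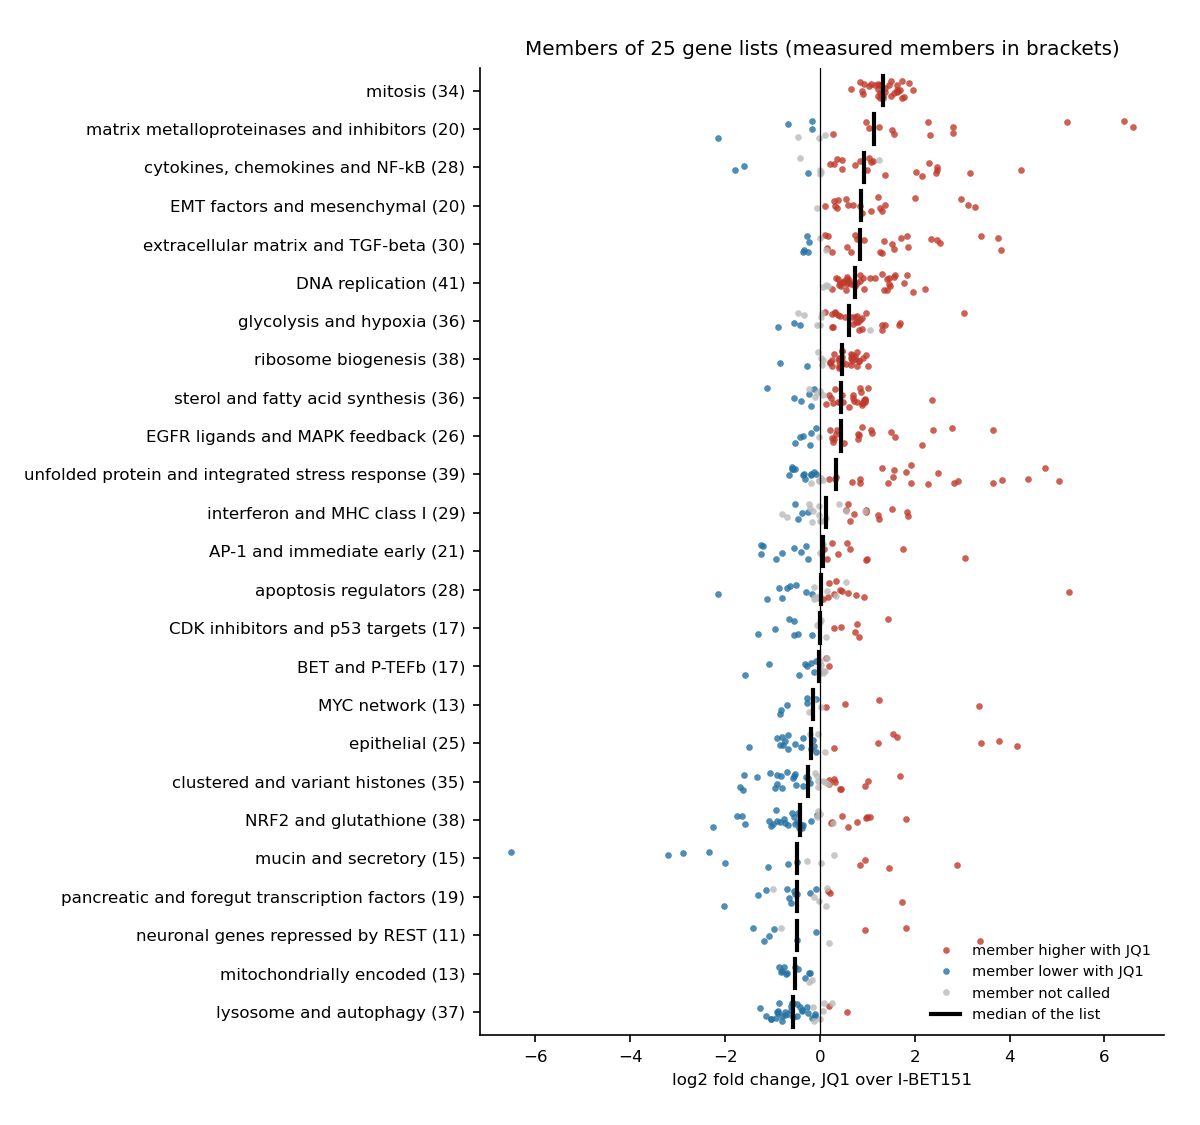
Each row is a gene list and each point 1 measured member, placed by its log2 fold change of JQ1 over I-BET151; red members were higher with JQ1, blue lower, grey not called, and the black bar is the list's median. Lists run from lysosome and autophagy (median log2 fold change -0.56) at the bottom to mitosis (median log2 fold change 1.33) at the top.

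Epithelial and mucin genes were mostly lower with JQ1, that is, higher in I-BET151 libraries. Clca1, a secreted goblet-cell protein that regulates chloride channels, is at chromosome 3, 145003817 to 145032776. It had 2.37, 1.48 and 2.104 CPM with JQ1, 188, 184 and 187 with I-BET151 and 1.83, 2.92 and 2.505 in controls, so JQ1 and control libraries overlapped and I-BET151 libraries stood alone (log2 fold change -6.51 ± 0.076, adjusted p = 2.8e-54). Muc1, a membrane mucin of ductal epithelium, had 77.5, 85.01 and 82.7 CPM with JQ1, 781, 742 and 742 with I-BET151 and 69.5, 71.1 and 70.3 in controls (log2 fold change -3.21 ± 0.031, adjusted p = 4.4e-60). Muc5ac, the gel-forming mucin of gastric surface cells, averaged 4.21 ± 0.806 CPM with JQ1, 30.8 ± 0.0643 with I-BET151 and 4.86 ± 0.175 in controls. Over control, Muc1 rose by 0.22 with JQ1 and by 3.43 with I-BET151, and Muc5ac rose with I-BET151 by 2.66.

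Of 15 measured mucin and secretory genes, 4 were higher with JQ1, 8 lower and 3 not called, where 30.7% of all genes were higher and 29.8% lower. Creb3l1, a membrane-bound transcription factor of secretory cells, was the largest on the higher side (log2 fold change 2.88). Of 25 epithelial genes, 7 were higher, 15 lower and 3 not called, and with library totals 8 were higher and 11 lower. Cdh1, which encodes E-cadherin, had 948, 942 and 939 CPM with JQ1, 1492, 1492 and 1512 with I-BET151 and 772, 789 and 780.4 in controls, and the 3 groups did not overlap (log2 fold change -0.67 ± 0.021, adjusted p = 7.8e-36). Elf3, an epithelial ETS factor, was lower with JQ1 (log2 fold change -1.51), and so was Krt19, the ductal keratin (-0.85). The opposite held for genes of cornified epithelium, Cdsn (log2 fold change 4.15 ± 0.18) and Pkp1 (3.77 ± 0.15), which encode corneodesmosin and plakophilin. It held also for the keratin gene Krt23 (3.39 ± 0.12). Over control, the log2 fold change with JQ1 was -1.50 for Cdsn, -0.85 for Krt23 and -0.062 for Pkp1, the last not called. With I-BET151 it was -5.65, -4.24 and -3.83 in the same order.

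Transcription factors of the foregut and pancreas were also mostly lower with JQ1. Of 19 measured, 3 were higher with JQ1, 11 lower and 5 not called (median log2 fold change -0.49), and with library totals 6 were higher and 9 lower. Among all genes 30.7% were higher and 29.8% lower. The count of higher genes was 1 when JQ1 replicate 3 was left out, and also 1 without replicate 1 or 2 of I-BET151. Casz1, a zinc-finger factor, averaged 9.06 ± 0.660 CPM with JQ1, 36.9 ± 1.24 with I-BET151 and 5.76 ± 0.815 in controls, and Klf4, a factor of epithelial differentiation, 42.7 ± 2.42 CPM with JQ1, 105 ± 1.94 with I-BET151 and 45.5 ± 1.86 in controls. Hnf4a was not called (log2 fold change -0.022), nor was Pdx1 (0.12), the homeobox gene of early pancreas.

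The stress response list divided by branch. The integrated stress response acts through the factor ATF4, which turns on genes for amino acid uptake and synthesis, while the unfolded protein response also raises chaperones of the endoplasmic reticulum. Slc7a11, the cystine transporter, is at chromosome 3, 49892526 to 50443614. It had 182, 168 and 175 CPM with JQ1, 7.09, 6.04 and 6.53 with I-BET151 and 284, 286 and 290.5 in controls. No 2 of the 3 groups overlapped, and the log2 fold change was 4.74 ± 0.066 between the compounds (adjusted p = 1.1e-30), with -0.71 for JQ1 and -5.46 for I-BET151 over control.

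Bcat1, the cytosolic branched-chain aminotransferase, was higher with JQ1 (log2 fold change 5.05 ± 0.27) and so was Cth, which makes cysteine from cystathionine (4.38 ± 0.091). Atf4 itself averaged 283 CPM with JQ1, 159 with I-BET151 and 364 in controls, a log2 fold change of 0.83 (adjusted p = 1.4e-33). Higher by more were Trib3 (log2 fold change 3.84), a pseudokinase induced by ATF4, and the serine synthesis genes Psat1 (2.28), Psph (1.92) and Phgdh (1.54), with the asparagine synthetase gene Asns (1.92). Each of these was below control with both compounds. Ddit3, which encodes the stress factor CHOP, was not called between the compounds (14.1 CPM with JQ1, 16.01 with I-BET151 and 28.2 in controls).

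Chaperone genes did not follow. Hspa5, the main chaperone of the endoplasmic reticulum, was slightly lower with JQ1 (log2 fold change -0.12) and Hsp90b1 was not called, while Calr (-0.58), a lectin chaperone, and Herpud1 (-0.60), a component of protein disposal, were lower with JQ1, as was Sdf2l1 (-0.65). Over the whole list of 39 genes, 22 were higher with JQ1, 12 lower and 5 not called, and with library totals 26 were higher and 8 lower. The shares over all genes were 30.7% higher and 29.8% lower. The division into branches was made after the values were seen.

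**Figure D4:**
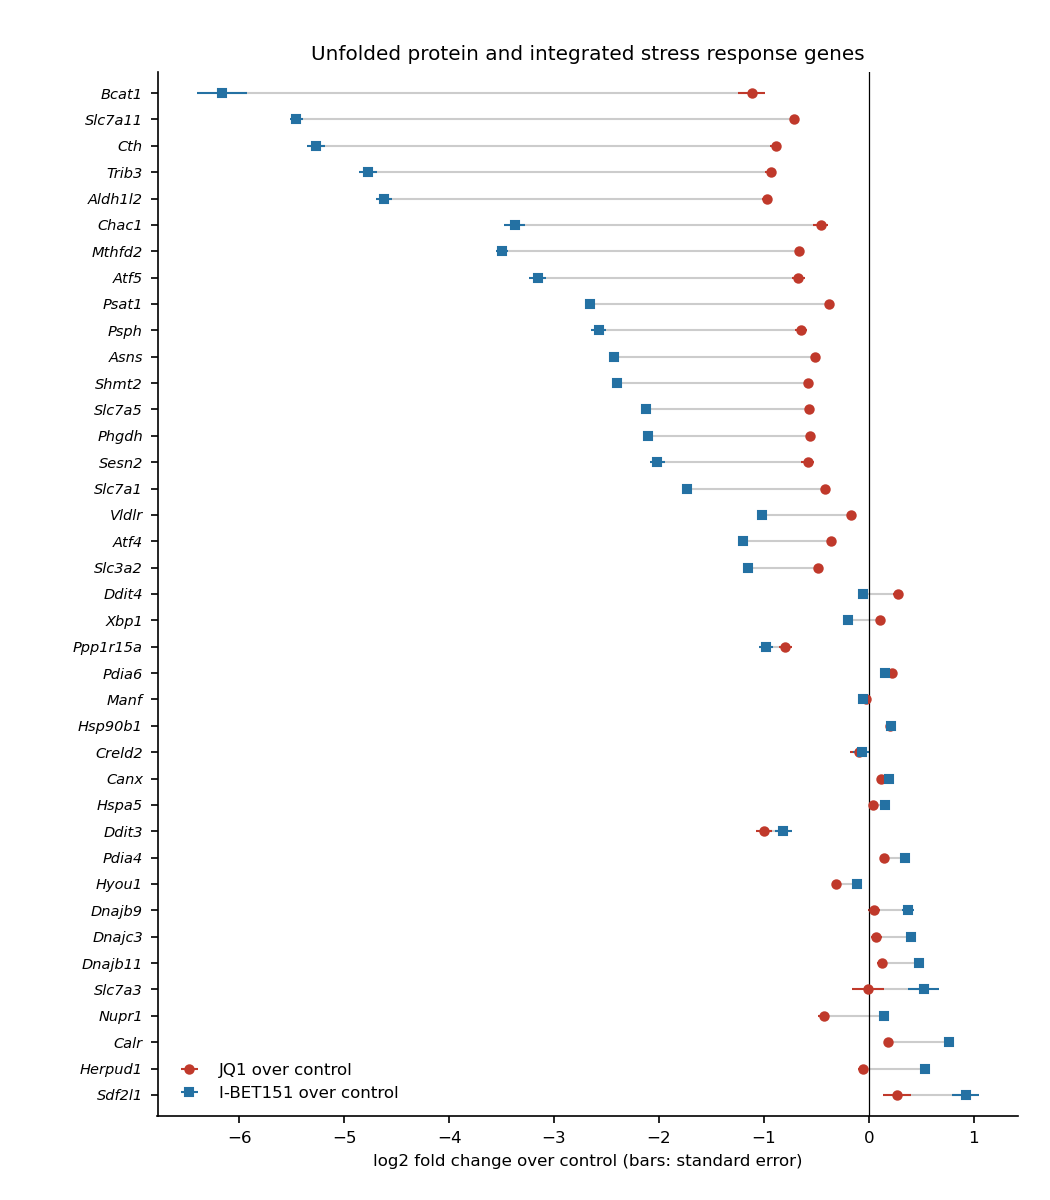
For each of the 39 unfolded protein and integrated stress response genes, the red circle gives the log2 fold change of JQ1 over control and the blue square that of I-BET151 over the same control libraries, with bars for 1 standard error. Genes of amino acid uptake and synthesis such as Slc7a11 and Cth lie left of 0 with both compounds and far further with I-BET151, and chaperone genes at the bottom lie near 0 or right of it.

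Glutathione and detoxification genes were mostly lower with JQ1. Of 38 measured NRF2 and glutathione genes, 9 were higher, 25 lower and 4 not called (median log2 fold change -0.43). The shares over all genes were 30.7% higher and 29.8% lower. Gsta4, a glutathione transferase of lipid aldehydes, had 78.03, 74.8 and 77.5 CPM with JQ1, 361, 367 and 373 with I-BET151 and 60.6, 61.3 and 60.9 in controls (log2 fold change -2.25 ± 0.03). Gclc, the catalytic subunit of the first enzyme of glutathione synthesis, averaged 89.8 ± 5.05 CPM with JQ1, 303 ± 12.7 with I-BET151 and 71.2 ± 1.65 in controls (log2 fold change -1.75 ± 0.045). Gclc and Slc7a11, which serve the same synthesis, thus differed in opposite directions. Aldh1a3, an aldehyde dehydrogenase, was the largest on the higher side (log2 fold change 1.8), and the NRF2 targets Srxn1 and Txnrd1 were not called.

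Lysosomal genes formed the list with the lowest median. Of 37 measured, 2 were higher with JQ1, 29 lower and 6 not called (median log2 fold change -0.56, against 0.011 over all genes), and with library totals 5 were higher and 26 lower. Atp6v0d1, a subunit of the proton pump, averaged 36.00 ± 0.776 CPM with JQ1, 87.1 ± 2.57 with I-BET151 and 37.96 ± 3.18 in controls. The sialidase gene Neu1 was lower (log2 fold change -1.14) and so was Ulk1, the kinase that starts autophagy (-1.04). Tfeb, a transcription factor of lysosomal genes, was higher with JQ1 (log2 fold change 0.58). Against control, 4 lysosomal genes rose and 6 fell with JQ1, while 27 rose and 5 fell with I-BET151. Of all genes, 12.6% rose and 12.4% fell against control with JQ1, while 30.7% rose and 32.6% fell with I-BET151.

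Mitochondrially encoded genes and histone genes were likewise mostly lower with JQ1. Of the 13 mitochondrial genes, 11 were lower and 2 not called (median log2 fold change -0.53). Subunit gene mt-Nd5 of respiratory complex I averaged 3745 ± 72.8 CPM with JQ1, 6615 ± 127 with I-BET151 and 3034 ± 72.4 in controls. Of 35 histone genes, 9 were higher with JQ1, 19 lower and 7 not called, where 30.7% of all genes were higher and 29.8% lower. H1f0, a linker histone of resting cells, had 205, 208 and 209 CPM with JQ1, 364, 369 and 365 with I-BET151 and 181, 181 and 186 in controls (log2 fold change -0.82 ± 0.026), and the core histone gene Hist1h2bc was lower (-1.62). Hist1h2ag was the largest on the higher side (log2 fold change 1.7). Counts of near-identical histone genes may be shared among copies.

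Genes of cholesterol synthesis lay on opposite sides of control with the 2 compounds in the examples that follow. Cyp51, a demethylase of lanosterol, averaged 138 ± 2.904 CPM with JQ1, 68.04 ± 2.03 with I-BET151 and 115 ± 3.37 in controls (SD, n = 3 each). It rose over control with JQ1 by 0.26 (adjusted p = 8.4e-09) and fell with I-BET151 by 0.76 (adjusted p = 1.4e-26), both log2. Hmgcs1, an early enzyme of the pathway, averaged 235 CPM with JQ1, 130.2 with I-BET151 and 172 in controls. Of 36 sterol and fatty acid genes, 25 were higher with JQ1 than with I-BET151, 6 lower and 5 not called, and with library totals 28 were higher and 3 lower. Acss2, which makes acetyl-CoA from acetate, was the largest on the lower side (log2 fold change -1.12). Over control, 28 of the 36 rose and none fell with JQ1, while 11 rose and 23 fell with I-BET151. Of all genes, 12.6% rose and 12.4% fell with JQ1, and 30.7% rose and 32.6% fell with I-BET151.

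Glycolysis and hypoxia genes were mostly higher with JQ1, 26 of 36, with 3 lower and 7 not called (median log2 fold change 0.61). For all genes the shares were 30.7% higher and 29.8% lower. Slc16a3, the lactate exporter MCT4, averaged 75.5 ± 3.16 CPM with JQ1, 9.17 ± 0.131 with I-BET151 and 55.5 ± 1.08 in controls. The phosphofructokinase gene Pfkp was higher with JQ1 (log2 fold change 1.68 ± 0.085) and so was the carbonic anhydrase gene Car12 (1.68 ± 0.13). Epas1, which encodes HIF-2α, was lower with JQ1 (log2 fold change -0.89), and Pkm, the pyruvate kinase, was not called at 1281 CPM with JQ1 and 1283 CPM with I-BET151.

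Cytokine genes showed wide differences. Il1rn, which encodes the interleukin-1 receptor antagonist, had 124, 115 and 118 CPM with JQ1, 6.75, 5.95 and 6.39 with I-BET151 and 134, 128 and 137 in controls (log2 fold change 4.23 ± 0.054, adjusted p = 2e-55). Ptgs2, the inducible cyclooxygenase, averaged 169.7 ± 1.56 CPM with JQ1, 30.5 ± 1.64 with I-BET151 and 215 ± 5.81 in controls, and Csf2, which encodes GM-CSF, 3.03 ± 0.170 CPM with JQ1, 0.335 ± 0.104 with I-BET151 and 3.47 ± 0.453 in controls. Il18 was the largest on the lower side (log2 fold change -1.79 ± 0.12). Of 28 measured genes, 20 were higher with JQ1, 3 lower and 5 not called (median log2 fold change 0.92). Among all genes 30.7% were higher and 29.8% lower.

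Cd274, the gene of the checkpoint ligand PD-L1, had 7.65, 8.001 and 8.23 CPM with JQ1, 6.12, 5.53 and 5.65 with I-BET151 and 5.36, 5.21 and 5.92 in controls. JQ1 libraries were above all I-BET151 libraries (log2 fold change 0.47 ± 0.13, adjusted p = 0.0016), and over control Cd274 rose by 0.53 with JQ1 (adjusted p = 0.0011), whereas I-BET151 over control was 0.067 (adjusted p = 0.69). B2m, the light chain of MHC class I, had a difference between the compounds with a 95% interval of -0.08 to 0.032, within 1.2-fold, and with library totals it was called higher with JQ1 by 0.13. Of 29 measured interferon and MHC class I genes, 11 were higher with JQ1, 4 lower and 14 not called, where 30.7% of all genes were higher and 29.8% lower. The largest on the higher side were Oasl2 (log2 fold change 1.85), H2-Q4 (1.84) and Ifit2 (1.52), an antiviral synthetase-like gene, an MHC gene and an interferon-induced gene. All averaged under 6 CPM in each group. Oasl2 averaged 0.79 CPM with JQ1 and 0.21 with I-BET151, and H2-Q4 averaged 1.03 CPM with JQ1 and 0.29 with I-BET151. The antigen-loading gene Tapbp was lower (-0.53), and with library totals 17 genes were higher and 3 lower. At a mean log2 CPM of at least 1, 7 genes were called higher.

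Among 28 apoptosis regulators, 11 were higher with JQ1, 9 lower and 8 not called, where 30.7% of all genes were higher and 29.8% lower. Bcl2l15, a BCL-2 family gene, had 13.6, 13.4 and 15.03 CPM with JQ1, 0.388, 0.253 and 0.460 with I-BET151 and 24.7, 24.96 and 22.5 in controls (log2 fold change 5.25 ± 0.19). Genes of both outcomes were lower with JQ1: the pro-death BH3 genes Bmf (log2 fold change -1.13) and Bcl2l11 (-0.71), and the survival gene Mcl1 (-0.86). Serpini1, a neuronal inhibitor of serine proteases, averaged 7.99 ± 0.687 CPM with JQ1, 16.8 ± 0.655 with I-BET151 and 5.02 ± 0.295 in controls (log2 fold change -1.08 ± 0.10). Of 11 measured neuronal genes repressed by REST, 3 were higher with JQ1, 6 lower and 2 not called, and 4 were higher and 5 lower with library totals. Snap25, a synaptic fusion protein gene, was the largest (log2 fold change 3.38 ± 0.28), and Rab3a, a vesicle GTPase gene under 1 CPM (-1.41, adjusted p = 0.022), had an adjusted p of 0.099 without JQ1 replicate 3, 0.077 without I-BET151 replicate 1 and 0.075 without I-BET151 replicate 2.

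Several of the largest differences belonged to none of these lists. Prl2c2, a proliferin of the prolactin family, held 713 counts over the 3 JQ1 libraries, 0 over the I-BET151 libraries and 651 over the controls. Against a floor of 3 counts over the I-BET151 group it was at least 201-fold higher with JQ1, and reads of its near-identical paralogs may be shared with it. Mrc1, the mannose receptor best known from macrophages, had 63.4, 65.4 and 67.2 CPM with JQ1, 0.922, 1.604 and 0.919 with I-BET151 and 65.8, 66.7 and 67.4 in controls (log2 fold change 5.8 ± 0.094). Of 16 leukocyte markers 2 were measured, Cd14 and Cd68, and neither was called (log2 fold change 0.093 and -0.018). Prss22, a serine protease gene, was higher with JQ1 (log2 fold change 5.22 ± 0.17), as were Cyp21a1, which makes steroid hormones (5 ± 0.16), Ccbe1, which encodes a secreted matrix protein of lymphatic growth (5.5 ± 0.11), Ndst3, a heparan sulfate sulfotransferase gene (5.35 ± 0.23), and Klra4, of the Ly49 receptor family with many close paralogs (5.37 ± 0.27).

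On the lower side, Depp1, a gene induced by FOXO factors, had 2.97, 3.56 and 2.89 CPM with JQ1, 45.6, 45.1 and 40.04 with I-BET151 and 2.37, 2.43 and 2.76 in controls (log2 fold change -3.8 ± 0.10). Transporters and enzymes made up most of the others: the prostaglandin transporter Slco2a1 (log2 fold change -2.27 ± 0.028), the sulfate transporter Slc26a2 (-2.25 ± 0.026), the cytochrome P450 Cyp3a13 (-2.56 ± 0.039) and the retinal reductase Dhrs3 (-2.17 ± 0.05). The protease gene Bace2 (log2 fold change -2.31 ± 0.16) and the ligand gene Wnt4 (-2.11 ± 0.094) completed the 12. Slco2a1 averaged 97.8 ± 1.92 CPM with JQ1, 472 ± 2.23 with I-BET151 and 87.2 ± 1.06 in controls, and Slc26a2 214 ± 2.64 CPM with JQ1, 1023 ± 0.737 with I-BET151 and 177 ± 4.65 in controls.

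Agreement between the compounds could be stated for part of the genes. The 95% interval of the difference lay within 1.2-fold for 2925 genes (16.9%), of which 1052 (6.07% of all) were also called. For 4976 genes (28.7%) the difference was neither called nor held within 1.2-fold, and for these the libraries do not show whether the compounds act alike. Among 128 genes with an average log2 CPM of 2 or more that lay at least 1.5-fold from control with each compound in the same direction, the 6 with the narrowest bound on the difference were taken as most alike. These were picked for their small difference, so their values are a description.

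Ccn1, a matricellular protein gene induced by YAP, had 513, 519 and 528 CPM with JQ1, 513, 529 and 529.7 with I-BET151 and 335, 351 and 344 in controls. JQ1 and I-BET151 libraries overlapped and all lay above controls, and the difference had an interval of -0.057 to 0.037 on the log2 scale. Id2, an inhibitor of helix-loop-helix factors, averaged 89.7 ± 2.48 CPM with JQ1, 95.1 ± 1.54 with I-BET151 and 55.3 ± 1.34 in controls. Its difference of -0.085 was called (adjusted p = 0.041) although within 1.2-fold, and it had an adjusted p of 0.20 without JQ1 replicate 1, 0.084 without I-BET151 replicate 1 and 0.079 without I-BET151 replicate 3. Osmr, which encodes the oncostatin M receptor, averaged 21.3 CPM with JQ1, 21.9 with I-BET151 and 14.1 in controls, and its difference had an interval of -0.21 to 0.13. Spon2, a matrix protein gene, averaged 14.5 CPM with JQ1, 14.3 with I-BET151 and 8.73 in controls (interval -0.16 to 0.20), and Serpinb1a, a protease inhibitor gene, 8.06 CPM with JQ1, 8.34 with I-BET151 and 4.93 in controls (interval -0.24 to 0.15). All 3 rose over control with each compound, while Dennd4a, which activates a Rab GTPase, fell with each and averaged 47.02 CPM with JQ1, 48.1 with I-BET151 and 74.4 in controls (interval -0.13 to 0.067). With library totals the sign turned for Ccn1 (0.14), Id2 (0.069) and Dennd4a (0.12). Under that scaling Ccn1 and Dennd4a were called higher with JQ1, and Id2 was not called.

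**Figure D5:**
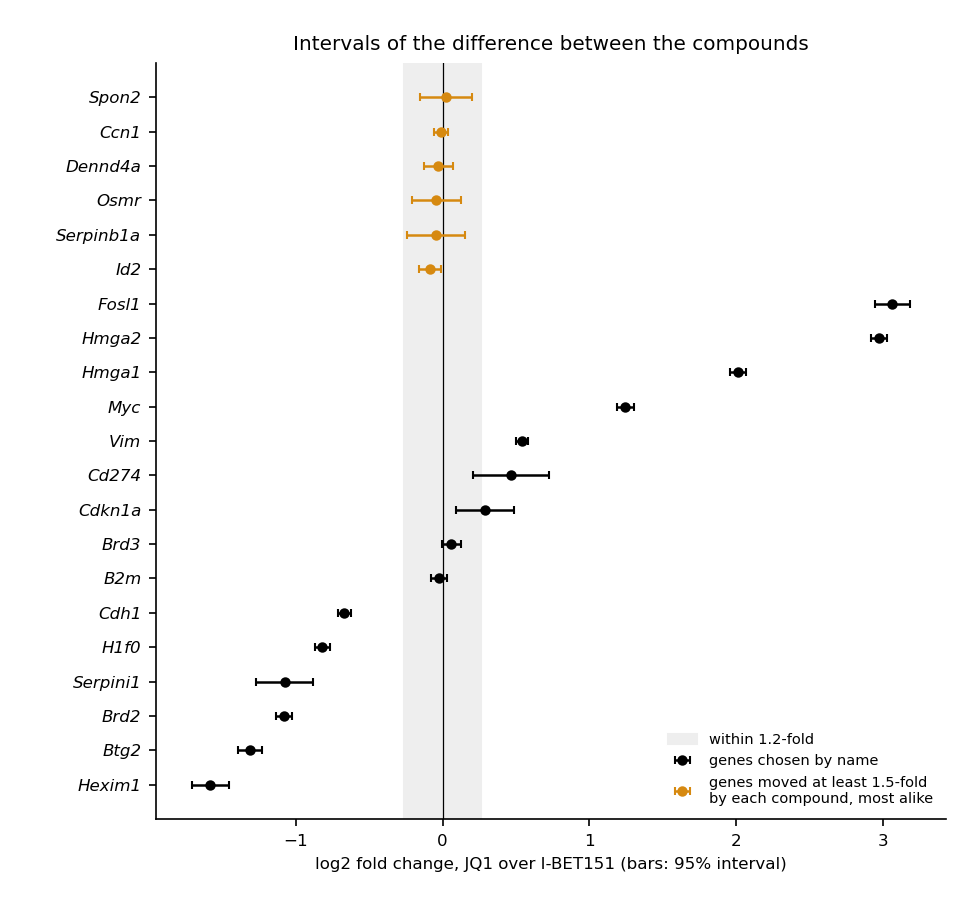
Points give the log2 fold change of JQ1 over I-BET151 with its 95% interval for genes chosen by name (black) and for the 6 genes moved most alike (orange), and the grey band marks 1.2-fold. The orange genes with Brd3 and B2m lie inside the band, and the genes from Hexim1 to Cdh1 and from Vim to Fosl1 lie outside it, while the intervals of Cdkn1a and Cd274 cross its edge.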

How the data were processed

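RNA of KPC cells was sequenced as 100-base paired-end reads, per the labels' protocols. The submitters' processing notes name bcl2fastq, STAR 2.7.2a, Subread 2.0.1 with featureCounts, edgeR 3.38.4 and build mm10. The authors deposited raw read counts per gene, with gene lengths. How ribosomal RNA was removed and whether counting used strand are not given in the sources used here, so antisense and overlapping genes cannot be told apart. Of the gene IDs, 99.0% matched GENCODE M21 exactly, and gene names and coordinates come from there. Where a symbol had several IDs, the one with the most counts was used.

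Counts of all 12 libraries entered 1 robust quasi-likelihood fit in edgeR 4.0.16 (R 4.3.3, limma 3.58.1) with TMM factors and no covariate. P-values were adjusted over 17340 genes by Benjamini and Hochberg's method, with calls at an adjusted p under 0.05, and filterByExpr removed 0 of them. The common biological coefficient of variation was 3.37%. Levels are CPM on TMM-scaled library sizes, with a prior count of 2 on the log2 scale. Levels are not scaled by gene length, so they compare libraries and not genes. Replicate pairs differed beyond counting noise (chi-square per degree of freedom 1.62 to 2.32), so none was counted as a repeat. That does not show that they are separate cultures. Intervals cover the spread between libraries, and the floor of 3 counts covers counting error only.

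The members and lists were chosen with earlier results of these data known. Named were the 12 largest differences in each direction at a mean log2 CPM of at least 2 without overlap, up to 3 members of each list with the largest in the other direction, 16 fixed genes and 6 most alike. Genes named outside this rule were chosen after their values were seen, and a few genes under the rule are not reported here. DESeq2 1.42.0, other scalings and filters, the 6 libraries alone, a replicate block and single libraries left out were alternatives. Scripts were tested on simulated data.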

Additional observations from a re-analysis of the deposited data

How the results depend on the processing

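Of the 10491 genes called, 9925 were also called by DESeq2 (9938 in all), 10478 with relative log expression factors (10497), 10247 with the 6 libraries alone (10630 of 16562 tested) and 10411 without the robust prior (10480), an alternative chosen after seeing the data. Leaving out single libraries gave 9782 to 9947. Deviations of same-numbered JQ1 and I-BET151 libraries correlated at 0.034, -0.04 and 0.046 across genes, so no shared effect was seen, and the replicate block gave 10381 calls. Low correlations cannot show that same-numbered libraries were handled apart, and the labels do not say. Without a filter the calls were identical, since the filter removed no gene.

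Scaling moved the split most. With library totals 10605 genes were called, 7300 higher and 3305 lower, 8625 of them shared, and 64 called genes changed direction. The differences of B2m (0.13), Ccn1 (0.14), Dennd4a (0.12) and Id2 (0.069) reversed, and Brd3 (0.21) became called. Of the reversed genes, B2m, Ccn1 and Dennd4a became called, and Id2 lost its call. At a mean log2 CPM of at least 1, where 12834 genes were tested, 1292 differed at least 2-fold and Brd3 was called (0.081). Id2 was not called there (-0.062) or by DESeq2 (-0.087). The causes were not tested. Of the log2 fold changes of 125 named genes over all alternatives, 1719 kept direction and call, and 13 lost the call. The interval count within 1.2-fold stayed between 2605 and 3074. In the lowest of 4 equal groups of genes by level 31.6% were called, and whether more depth would add calls there was not tested.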

Other observations

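Of 137 measured genes of small nucleolar RNAs, which guide the modification of ribosomal RNA, 27 were higher with JQ1 than with I-BET151, 1 lower and most not called, where 30.7% of all genes were higher and 29.8% lower. Gas5, Snhg1 and Snhg12, host genes of such RNAs picked after their values were seen, were higher with JQ1. Gas5 averaged 144 CPM with JQ1, 76.5 with I-BET151 and 189 in controls, Snhg1 averaged 85.3 CPM with JQ1, 45.4 with I-BET151 and 126 in controls, and Snhg12 averaged 13.7 CPM with JQ1, 5.51 with I-BET151 and 22.3 in controls. Their log2 fold changes between the compounds were 0.91 ± 0.033 for Gas5, 0.91 ± 0.044 for Snhg1 and 1.31 ± 0.10 for Snhg12 (SE).

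Processed pseudogenes, intronless copies of mRNAs, had 370 of 1369 higher with JQ1, 65 lower and most not called. Over all genes 30.7% were higher and 29.8% lower, so their share called higher was not above that of all genes, and few were called lower. Their median log2 fold change was 0.30, against 0.011 over all genes. Reads of their parent genes may be shared with them. The 12665 protein-coding genes divided evenly, with 4280 higher and 4529 lower. The nuclear RNA Neat1, which builds paraspeckles, averaged 11630 CPM with JQ1, 13377 with I-BET151 and 12494 in controls, a log2 fold change of -0.20 ± 0.019, and Malat1 averaged 28094 CPM with JQ1, 78457 with I-BET151 and 25666 in controls, a log2 fold change of -1.48 ± 0.024. The 7SK RNA gene Rn7sk, whose RNA holds P-TEFb with the HEXIM1 protein, averaged 14049 CPM with JQ1, 17796 with I-BET151 and 14397 in controls.

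The comparison had 5 genes at least 16-fold lower with JQ1, against 96 at least 16-fold higher, and all 5 were low in controls. Besides Clca1 they were Slc18a1, a vesicle transporter of monoamines, with 0.388 CPM with JQ1, 7.59 with I-BET151 and 0.440 in controls; Ttr, the thyroid hormone carrier transthyretin, with 0.0713 CPM with JQ1, 1.76 with I-BET151 and 0.0147 in controls; Fam222a, with 0.0584 CPM with JQ1, 1.58 with I-BET151 and 0.0426 in controls; and the long noncoding RNA gene Gm42743, with 0.498 CPM with JQ1, 7.98 with I-BET151 and 0.272 in controls.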
